A study of Mus musculus with 2 samples.

Results

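The genes described here are 10 members of the vascular endothelial growth factor (VEGF) and angiopoietin pathways: the ligands Vegfa, Vegfb, Vegfc and Angpt1, the receptors Flt1, Kdr, Flt4, Tek and Tie1, and the co-receptor Nrp1. They were chosen by symbol, and all 10 were among the 32245 features measured. RNA of single nuclei from mouse cardiac tissue was sequenced in 2 libraries, 1 per group, with a droplet method that counts the 3′ ends of transcripts by unique molecular identifiers (UMIs). CF-KI carried Tcf21-MerCreMer and the A350V allele on both copies of Nlrp3, the gene of the NLRP3 inflammasome sensor, and stands for constitutive NLRP3 activation in fibroblasts. Control carried Tcf21-MerCreMer with wild-type Nlrp3. Shared by both groups were the Cre driver, the tamoxifen injections that make MerCreMer active, male sex, the C57Bl6/J strain and an age of 3.5 months. Tcf21 drives Cre in fibroblasts and other cells of epicardial origin, and per the design text the allele was silent where Cre was not expressed; what that left of Nlrp3 expression in the other cells was not given. How many animals went into a library was not given in the sources used here. With 1 library per group no test of genotype was possible, and every difference between CF-KI and control below compares those libraries. The intervals, at the 95% level, reflect the number of UMIs counted and no spread between animals.

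VEGF-A is released by oxygen-demanding cells and acts on endothelial cells through VEGFR2, the product of Kdr, while VEGFR1, the product of Flt1, binds VEGF-A and VEGF-B and largely acts as a decoy. VEGF-C acts mainly through VEGFR3, the product of Flt4, on lymphatic endothelium. Angiopoietin 1 from supporting cells activates Tie2, the product of Tek, and Tie1 is the orphan partner of Tie2 in the endothelial membrane.

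The CF-KI library held 15077 barcodes and 21603653 UMIs, and the control library 11257 barcodes and 18040776 UMIs. After filtering, 14317 and 10897 nuclei were left, and 46 barcode sequences occurred in both libraries. Mitochondrial RNA took a median of 14.2% of a CF-KI barcode's UMIs and 3.46% of a control barcode's. Clusters made without the 10 genes gave 10 classes of 50 nuclei or more per library, named from marker RNA and written with the ending -like. Of the markers that define these classes, 1 adipocyte marker was at 0 in CF-KI and none in control. Smooth muscle nuclei formed no cluster of their own. The cardiomyocyte-like class was made of a cluster held mostly by CF-KI (2414 CF-KI and 218 control nuclei) and another held mostly by control (208 and 1970). In the fibroblast-like class 1 cluster was mostly CF-KI (3186 and 157), another mostly control (233 and 2329), and another, led by Cilp, Myoc, Cd248 and Pi16, held both (710 and 1109). The library and these clusters cannot be told apart. A 3′ count does not show the Nlrp3 allele, and Nlrp3 itself gave 6 UMIs in CF-KI and 0 in control fibroblast-like nuclei, which checks nothing at this depth. Levels are given as CPM, which is a gene's share of the non-mitochondrial UMIs in a class times 1000000, and they compare classes for 1 gene, not genes with each other.

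The promoters of Flt1, Kdr and Tek are shown because these receptors had their highest or near-highest level in the endothelial-like class but differed in where else they were found. Each line gives the 250 bases before the RefSeq transcript start, from the GRCm38.p6 tables, 5′ to 3′ on the gene's strand. Capitals mark GGAA or its reverse complement TTCC, the core bound by ETS factors, which are active in endothelial cells.
Flt1: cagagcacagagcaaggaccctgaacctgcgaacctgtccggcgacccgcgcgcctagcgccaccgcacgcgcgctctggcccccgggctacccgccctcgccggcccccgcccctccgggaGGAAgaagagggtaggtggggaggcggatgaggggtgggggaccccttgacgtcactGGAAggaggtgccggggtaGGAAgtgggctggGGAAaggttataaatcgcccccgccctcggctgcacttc
Kdr: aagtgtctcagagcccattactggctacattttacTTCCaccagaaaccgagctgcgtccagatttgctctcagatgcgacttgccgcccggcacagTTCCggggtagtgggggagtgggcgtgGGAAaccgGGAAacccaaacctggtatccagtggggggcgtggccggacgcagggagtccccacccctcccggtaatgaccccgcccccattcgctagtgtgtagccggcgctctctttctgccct
Tek: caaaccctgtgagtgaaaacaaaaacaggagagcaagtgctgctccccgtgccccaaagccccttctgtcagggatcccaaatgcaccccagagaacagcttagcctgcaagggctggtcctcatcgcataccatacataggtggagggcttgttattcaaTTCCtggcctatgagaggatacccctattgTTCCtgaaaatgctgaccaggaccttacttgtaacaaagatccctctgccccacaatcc
The Flt1 window lies on the minus strand at chr5:147726012-147726261, the Kdr window on the minus strand at chr5:75978456-75978705, and the Tek window on the plus strand at chr4:94739039-94739288. Flt1 and Kdr each held 4 copies of the motif on the 2 strands together and Tek held 2. Of 32851 RefSeq promoter windows of this length, 93.45% held at least 1 copy and the median was 3, so these counts are ordinary. The motif TATAAA, on either strand, had 1 copy in the Flt1 window and none in the Kdr and Tek windows, against 12.37% of all windows with a copy. A match is a description of the letters, not a binding site.

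Vegfa, the main angiogenic ligand (ENSMUSG00000023951, chr17:46016993-46032369 on GRCm38, minus strand), was found mostly in muscle and fat. Its level in cardiomyocyte-like nuclei was 734 CPM in CF-KI (95% Poisson interval in the plot of levels by class) and 826 CPM in control. Adipocyte-like nuclei held 687 CPM in CF-KI and 786 CPM in control. In neither library did the counting interval of the ratio separate these classes. Atrial cardiomyocyte-like nuclei followed at 320 CPM and 394 CPM; this step down from the adipocyte-like level was larger than its counting interval in both libraries. Every other class of the control library lay between 53.1 and 112 CPM. Cardiomyocyte-like nuclei contributed 70.9% of all Vegfa UMIs in CF-KI and 79.4% in control. Nuclei with at least 500 non-mitochondrial UMIs were thinned to 500. This left out 18 CF-KI and 5 control cardiomyocyte-like nuclei, and 172 and 49 endothelial-like nuclei. After thinning, 28.9% of CF-KI and 31.4% of control cardiomyocyte-like nuclei still held a Vegfa UMI, against 62.4% and 76.2% of all nuclei of the class before it. In endothelial-like nuclei the thinned shares were 2.58% and 2.74%.

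**Figure D1:**
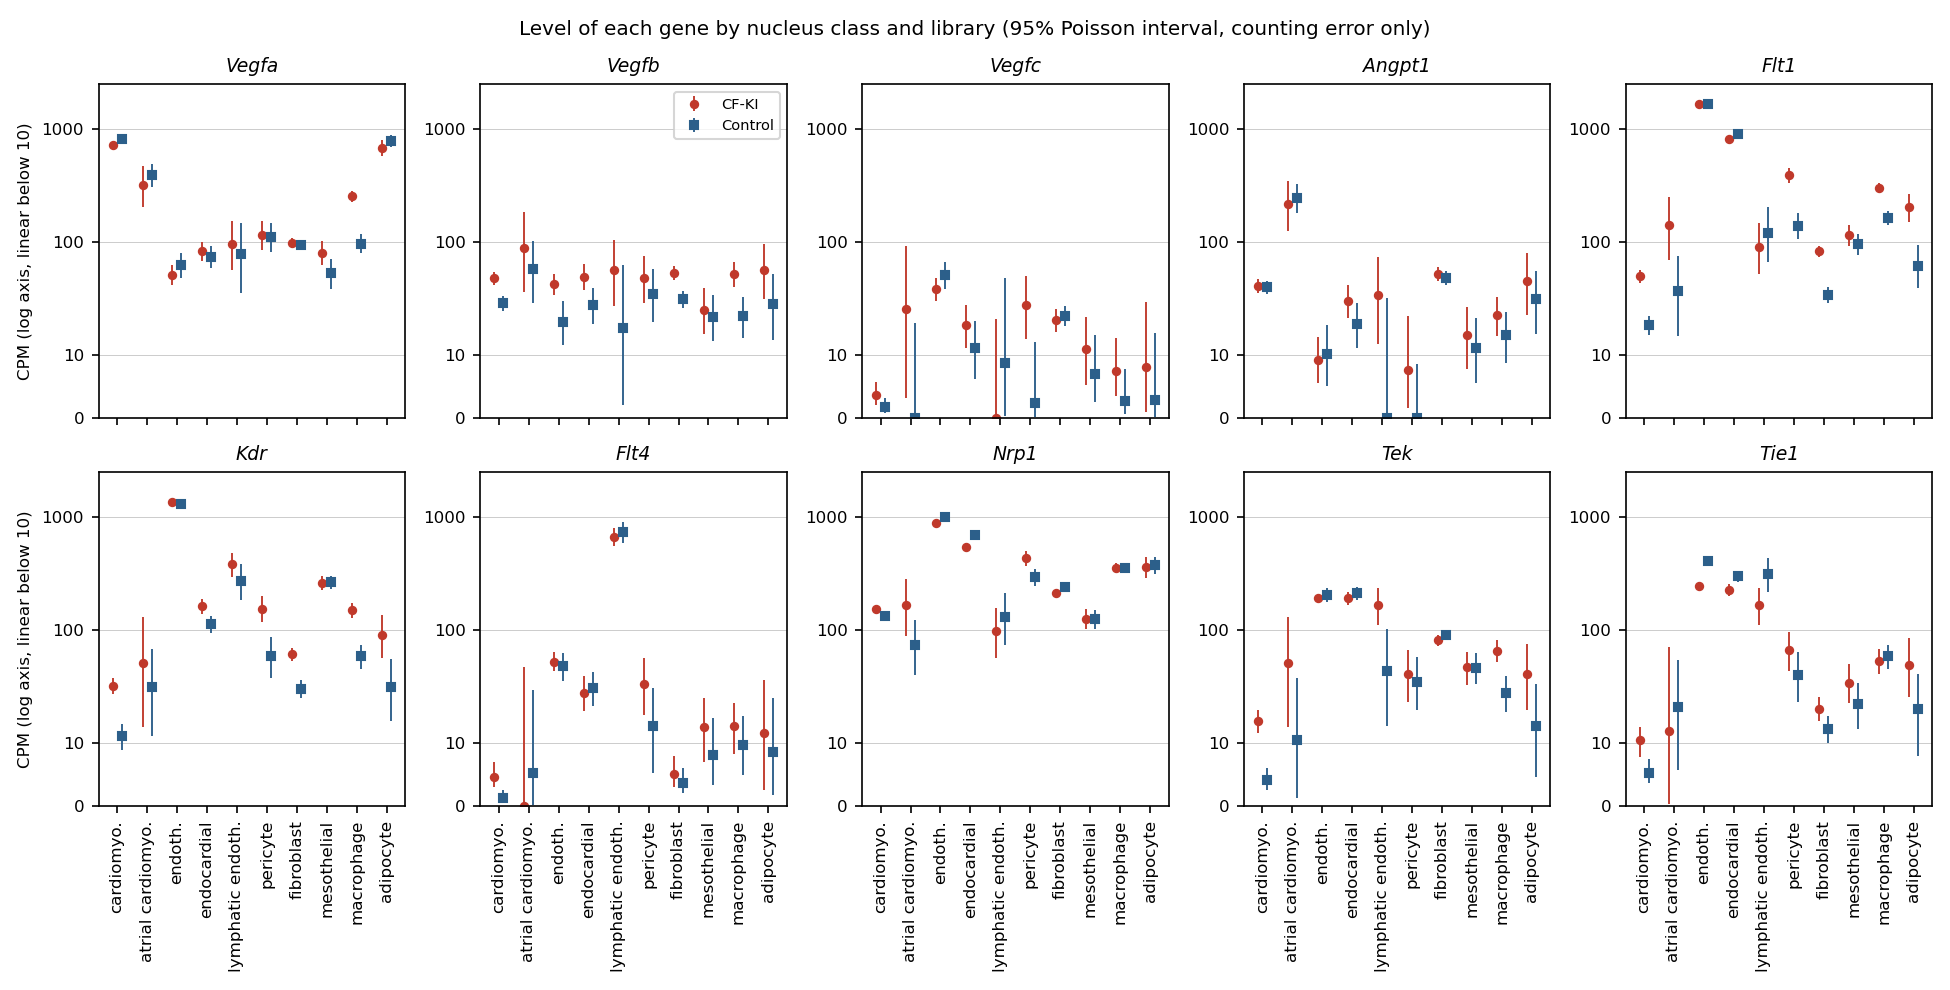
Level of each of the 10 genes (vertical axis, CPM, logarithmic above 10 and linear below) in the 10 nucleus classes (horizontal axis), with CF-KI as circles and control as squares and bars for the 95% Poisson interval. Vegfa stands highest in cardiomyocyte-like and adipocyte-like nuclei, Flt1, Kdr and Nrp1 in endothelial-like nuclei and Flt4 in lymphatic endothelial-like nuclei, in both libraries.

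The Vegfa level of cardiomyocyte-like nuclei was 1.12-fold lower in CF-KI, a log2 ratio of -0.17 with an interval from -0.23 to -0.11. Both of the clusters that make up the class gave the same sign, at -0.08 (-0.23 to 0.08) in the cluster held mostly by CF-KI and -0.35 (-0.52 to -0.18) in the cluster held mostly by control. Genes of this class were shifted as a whole: trimmed-mean (TMM) scaling moved all log2 ratios by -0.20 and gave -0.37 for Vegfa. The difference was small under each setting.

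Macrophage-like nuclei were the class in which Vegfa differed most between the libraries. CF-KI held 256 CPM from 306 UMIs and control 97.3 CPM from 110 UMIs, a log2 ratio of 1.40 (1.08 to 1.72). Cardiomyocyte RNA moved with it: in macrophage-like nuclei the sum of the 8 cardiomyocyte markers was 17102 CPM for CF-KI and 7361 CPM for control, with none of the 8 at 0. Within each library the Vegfa level also followed those markers. In the 25% of nuclei with the least cardiomyocyte marker RNA the level was 43.7 CPM (23.2 to 74.7, 13 UMIs) in CF-KI and 16.5 CPM (6.06 to 35.9, 6 UMIs) in control. The 25% with the most held 518 CPM in CF-KI and 288 CPM in control. In adipocyte-like nuclei the contrast was smaller. Their 25% with the least cardiomyocyte marker RNA held 554 CPM (390 to 764) in CF-KI and 605 CPM (460 to 780) in control. The 25% with the most held 638 CPM (478 to 834) and 888 CPM (691 to 1124). Only 6 control adipocyte-like nuclei had no cardiomyocyte marker UMI, and they gave 1 Vegfa UMI. The part of cardiomyocyte RNA in the macrophage-like difference was not tested further. With called doublets kept the log2 ratio was 0.93, and among barcodes with at most 5% mitochondrial UMIs, 48 CF-KI and 620 control nuclei, it was 2.05.

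Vegfb, a ligand of VEGFR1 linked to fatty acid handling (ENSMUSG00000024962, chr19:6982473-6987651, minus strand), had low levels in every class. Across the 10 classes it ranged from 25.3 to 89.6 CPM in CF-KI and from 17.4 to 57.7 CPM in control, with the atrial cardiomyocyte-like class highest in both, from only 7 and 11 UMIs and not separated from the next class. Of the 9 steps between neighbouring classes in that order, 1 in CF-KI and 0 in control were larger than the counting interval. Neighbours in a sorted order are the closest pairs, so this count does not show that the levels were even. Vegfb was higher in CF-KI by value in all 10 classes. The cardiomyocyte-like level was 48.2 CPM against 28.7 CPM, a log2 ratio of 0.75 (0.45 to 1.04). Fibroblast-like nuclei held 53.4 CPM and 31.4 CPM (0.77, 0.44 to 1.10), endothelial-like nuclei 42.3 and 19.6 CPM (1.11, 0.41 to 1.87), and macrophage-like nuclei 52.7 and 22.1 CPM (1.25, 0.56 to 1.98). The clusters inside the cardiomyocyte-like class disagreed in sign, at -0.44 (-0.99 to 0.16) where CF-KI nuclei were most and 1.28 (0.64 to 1.87) where control nuclei were most. Inside the fibroblast-like class every cluster's interval included no difference. The log2 ratio was -0.01 (-0.97 to 1.15) where CF-KI nuclei were most and 0.76 (-0.31 to 1.69) where control nuclei were most. It was 0.57 (-0.04 to 1.18) in the Cilp and Pi16 cluster. Mitochondrial RNA moved with this gene. Barcodes of the cluster with a median mitochondrial share above 50%, which was kept out of all classes, held 178 CPM of Vegfb in CF-KI and 191 CPM in control. Among barcodes with at most 5% mitochondrial UMIs the ratio was 0.75 in cardiomyocyte-like nuclei but the other classes held too few UMIs to say. Fibroblast-like nuclei gave 2 and 43 UMIs (-0.01, -3.10 to 1.93), macrophage-like nuclei 3 and 15 (-0.02, -2.45 to 1.80) and endothelial-like nuclei 3 and 9 (0.46, -2.06 to 2.46). With a limit of 20% the ratio was 0.78 (0.48 to 1.08) in cardiomyocyte-like nuclei. It was 1.06 (0.29 to 1.91, from 63 and 18 UMIs) in endothelial-like nuclei. Endocardial-like nuclei went from 0.84 (0.19 to 1.51) without a limit to 0.55 (-0.19 to 1.30). The part of mitochondrial RNA in the difference was not tested.

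Vegfc, the ligand of lymphatic growth (ENSMUSG00000031520, chr8:54077606-54187096, plus strand), was sparse. Endothelial-like nuclei held the highest level in both libraries, 38.4 CPM in CF-KI and 51.4 CPM in control, a log2 ratio of -0.42 (-0.94 to 0.10). Fibroblast-like nuclei held 20.6 CPM and 22.3 CPM (-0.12, -0.58 to 0.34). The control step from endothelial-like to fibroblast-like nuclei was 2.31-fold and larger than its counting interval, while in CF-KI the pericyte-like level of 27.9 CPM could not be separated from the endothelial-like level. That pericyte-like level rested on 11 UMIs, against 1 UMI in control (2.33 CPM), a log2 ratio of 3.58 (0.80 to 9.01). Lymphatic endothelial-like nuclei, the cells that carry the receptor, held 0 Vegfc UMIs in CF-KI and 1 in control. No difference between the libraries was detectable for Vegfc in the endothelial-like or fibroblast-like class at this depth.

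Angpt1, the activating ligand of Tie2 (ENSMUSG00000022309, chr15:42424723-42676977, minus strand), was highest in atrial cardiomyocyte-like nuclei. The class held 218 CPM in CF-KI, from 61 nuclei, and 247 CPM in control, from 119 nuclei. Fibroblast-like nuclei came next at 52.3 CPM and 48.0 CPM, so the atrial level was 4.16-fold higher in CF-KI and 5.14-fold higher in control. The main cardiomyocyte-like class held 40.8 CPM and 40.02 CPM. Pericyte-like nuclei, often named as a source of this ligand, held 7.62 CPM in CF-KI and no UMI in control, where the Poisson interval reached 8.60 CPM. The log2 ratio of the libraries was -0.18 (-1.07 to 0.65) in the atrial class, 0.13 (-0.17 to 0.42) in fibroblast-like nuclei and 0.03 (-0.25 to 0.31) in cardiomyocyte-like nuclei. All 3 intervals include 0. Gm17473 overlaps Angpt1 on the opposite strand; whether counting used strand was not given in the sources used here.

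Flt1 (ENSMUSG00000029648, chr5:147561604-147726011, minus strand) and Kdr (ENSMUSG00000062960, chr5:75932827-75978458, minus strand) were both highest in endothelial-like nuclei and about level between the libraries there. Flt1 stood at 1683 CPM in CF-KI and 1669 CPM in control, a log2 ratio of 0.01 (-0.07 to 0.10). Kdr stood at 1371 CPM and 1304 CPM, a log2 ratio of 0.07 (-0.02 to 0.17). Both intervals include 0, but several alternatives excluded it. With TMM scaling Flt1 was at 0.09 (0.01 to 0.17) and Kdr at 0.15 (0.06 to 0.24), and among nuclei with at most 5% mitochondrial UMIs they were at 0.24 (0.06 to 0.41) and 0.41 (0.23 to 0.59). Kdr also excluded 0 with a 20% limit (0.14, 0.04 to 0.24) and with each library clustered on its own (0.14, 0.05 to 0.24). The receptors parted in the other endothelial classes. Endocardial-like nuclei held Flt1 at 820 CPM in CF-KI and 913 CPM in control, but Kdr at 162 and 113 CPM. Lymphatic endothelial-like nuclei held Flt1 at 91.3 and 122 CPM and Kdr at 382 and 269 CPM.

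The UMI ratio of Kdr to Flt1 puts this on 1 scale, since the depth of a nucleus cancels. It was 0.81 (0.77 to 0.86) in CF-KI and 0.78 (0.73 to 0.84) in control endothelial-like nuclei. Endocardial-like nuclei had a ratio of 0.20 (0.17 to 0.23) in CF-KI and 0.12 (0.10 to 0.15) in control, the intervals of the libraries not overlapping. That difference did not hold with free RNA subtracted: Kdr in this class then stood at 67.1 CPM in CF-KI and 107 CPM in control (log2 ratio -0.67, from 0.52), and Flt1 at 1281 and 1106 CPM (0.21, from -0.15). The same subtraction made Vegfa negative in this class, at -145 CPM in CF-KI and -9.47 CPM in control, so subtracted values are rough. The ratio was 4.19 (2.40 to 7.74) and 2.21 (1.14 to 4.505) in lymphatic endothelial-like nuclei. Mesothelial-like nuclei, the lining of the heart's outer surface, also held more Kdr than Flt1 UMIs, with ratios of 2.27 (1.77 to 2.94) and 2.76 (2.14 to 3.59).

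The 3 endothelial classes were then sub-clustered in each library without the 10 genes. The capillary-like sub-cluster, led by Rbp7 in both libraries, held Kdr at 1658 CPM in CF-KI (729 nuclei) and 1681 CPM in control (430 nuclei), with Kdr to Flt1 ratios of 0.90 and 1.00. Each library also had an unnamed sub-cluster whose first gene was Dnm3, but only Dnm3 and Ccdc85a were shared among the 10 leading genes, and the CF-KI list held the muscle genes Nrap, Xirp2, Myom2 and Ttn. They are therefore not matched: the CF-KI sub-cluster held Kdr at 942 CPM and Flt1 at 1481 CPM, and the control sub-cluster 580 and 1854 CPM. A small sub-cluster led by Wnt9b and Hapln1, left unnamed, held Flt1 at 1231 CPM (145 nuclei) and 1382 CPM (72 nuclei) but Kdr at 130 and 75.4 CPM. Its ratio of Kdr to Flt1 was 0.11 (0.07 to 0.16) in CF-KI and 0.05 (0.03 to 0.10) in control. Control alone had a further sub-cluster, led by Gkn3, Selp and Bmp4 with 123 nuclei, in which Kdr gave 2 UMIs against 70 of Flt1.

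**Figure D2:**
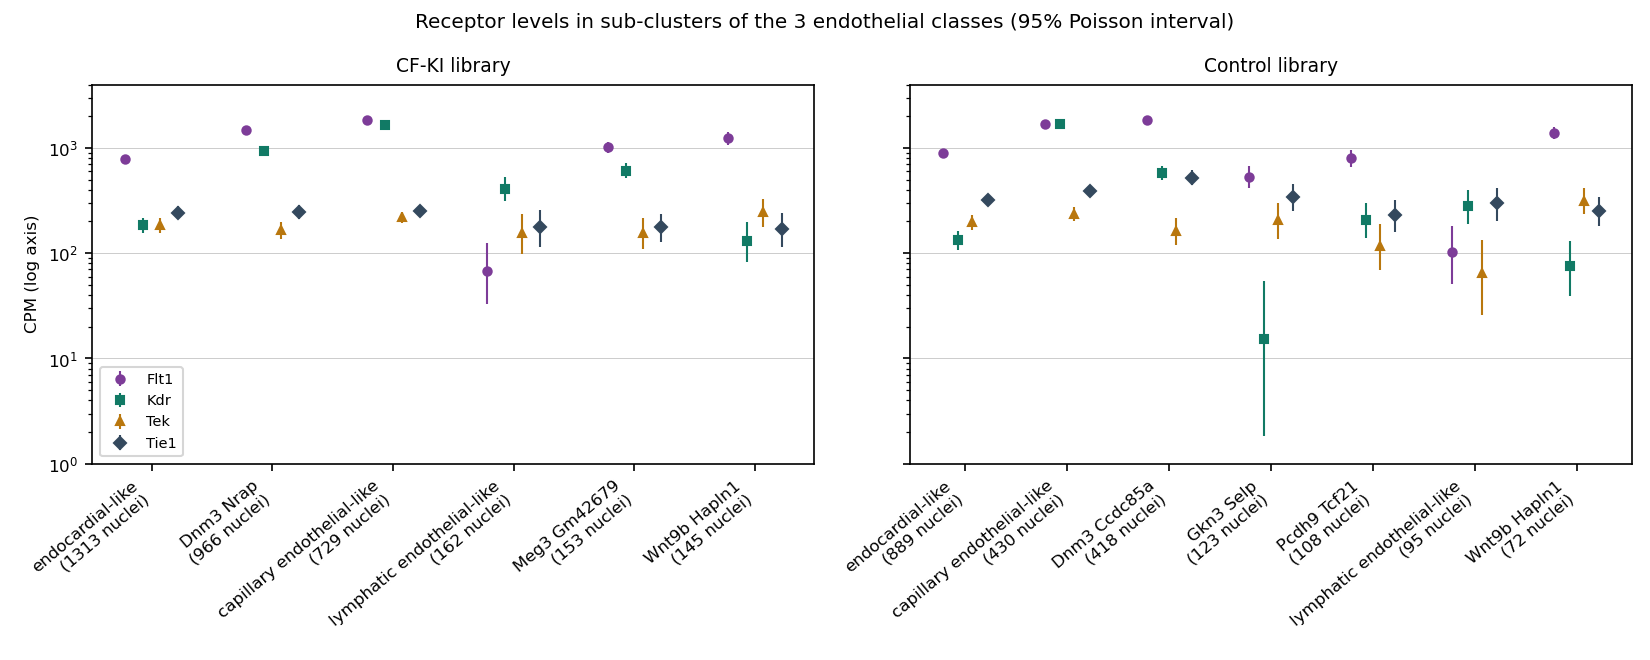
Levels of Flt1, Kdr, Tek and Tie1 (vertical axis, CPM, logarithmic) in the sub-clusters with at least 50 nuclei of the 3 endothelial classes of each library, with bars for the 95% Poisson interval. Kdr falls from 1658 and 1681 CPM in the capillary-like sub-clusters to 130 and 75.4 CPM in those led by Wnt9b and Hapln1, where Flt1 stays at 1231 and 1382 CPM.

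Kdr in mesothelial-like nuclei was 261 CPM in CF-KI and 264 CPM in control, a log2 ratio of -0.02 (-0.29 to 0.26). The level was about the same in nuclei without a UMI of any of the 10 endothelial markers, at 265 CPM (414 of 658 nuclei) and 267 CPM (484 of 672), though a nucleus of this depth with no such UMI may still hold endothelial RNA. After thinning to 500 UMIs, 11.6% and 10.8% of mesothelial-like nuclei held a Kdr UMI, against 3.27% and 1.36% of fibroblast-like nuclei. Nuclei too shallow to thin were left out, 20 and 5 mesothelial-like and 336 and 75 fibroblast-like. Flt1 in pericyte-like and macrophage-like nuclei showed the opposite picture. Pericyte-like nuclei held 391 CPM in CF-KI and 140 CPM in control, and those without an endothelial marker UMI held 86.1 CPM (214 nuclei) and 33.6 CPM (352 nuclei). In macrophage-like nuclei the level went from 304 and 165 CPM to 63.1 and 37.4 CPM under the same restriction. The drop was smaller in cardiomyocyte-like nuclei, from 49.9 and 18.4 CPM to 29.9 and 13.8 CPM. In fibroblast-like nuclei it was also smaller, from 82.9 and 34.1 CPM to 62.6 and 18.7 CPM.

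**Figure D3:**
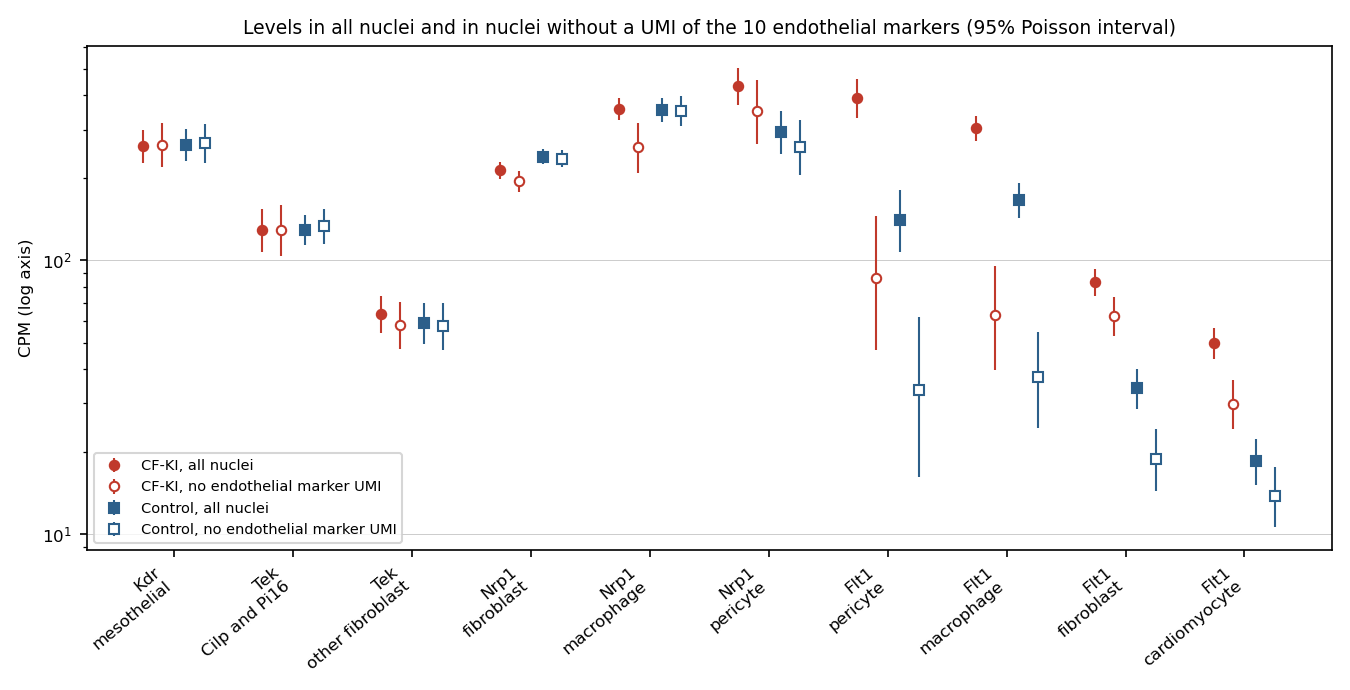
Levels (vertical axis, CPM, logarithmic) of Kdr, Tek, Nrp1 and Flt1 in non-endothelial groups of nuclei, with filled symbols for all nuclei, open symbols for nuclei without a UMI of the 10 endothelial markers and bars for the 95% Poisson interval. Kdr in mesothelial-like nuclei and Tek in both fibroblast-like groups sit at the same level with and without the restriction. Flt1 drops in pericyte-like and macrophage-like nuclei, and less in fibroblast-like and cardiomyocyte-like nuclei.

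Receptor genes were higher in CF-KI in several classes that are not endothelial, and endothelial marker RNA moved with them. In cardiomyocyte-like nuclei 4 of the 8 members with at least 50 UMIs were at least 2-fold higher in CF-KI, where 9.8% of all 9979 genes were, and 0 were at least 2-fold lower, against 1.09%. These 4 were Flt1 (49.9 against 18.4 CPM), Kdr (32.0 against 11.5), Tek (15.6 against 4.002) and Tie1 (10.5 against 5.22). The sum of the 10 endothelial markers in this class was 272 CPM for CF-KI and 99.0 CPM for control, with none at 0. In nuclei of the class without an endothelial marker UMI, Flt1 was still higher in CF-KI, at 29.9 CPM (24.2 to 36.6) against 13.8 CPM (10.6 to 17.6). The class value of Flt1 did not hold within its clusters. Its log2 ratio was 1.43 for the class, but -0.58 (-1.08 to -0.05) in the cluster held mostly by CF-KI and 0.47 (-0.80 to 1.53) in the cluster held mostly by control. Tie1 likewise stood at -0.58 (-1.68 to 0.71) and 0.66 (-1.72 to 2.40), from 8 control and 3 CF-KI UMIs on the thinner side. Kdr stood at 0.53 (-0.35 to 1.57) and 1.34 (0.30 to 2.26). Tek stood at 2.93 (0.40 to 8.25), from 1 control UMI, and 1.89 (0.41 to 3.16). With TMM scaling Tie1 was at 0.81 for the class, which leaves 3 of the 8 members past 2-fold.

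In macrophage-like nuclei CF-KI exceeded control by 2-fold or more for 4 of 7 members, beside 5.69% of 7344 genes, and 0 were lower by as much, beside 4.38%. They were Vegfa and Vegfb, described above, Kdr (150 against 58.4 CPM) and Tek (65.2 against 27.4 CPM), while Flt1 was at a log2 ratio of 0.88. Endothelial markers summed to 1507 CPM for CF-KI and 767 CPM for control there. Fibroblast-like nuclei had 2 of 9 higher (4.59% of 10881 genes) and 0 lower (1.45%). These were Flt1 and Kdr, with endothelial markers at 484 and 248 CPM. Fibroblast-like nuclei without an endothelial marker UMI held Flt1 at 62.6 CPM (53.0 to 73.3) in CF-KI and 18.7 CPM (14.3 to 24.1) in control. Within the 3 fibroblast-like clusters (mostly CF-KI, mostly control, and both) Flt1 was at 0.66 (-0.29 to 1.81), 1.51 (0.67 to 2.28) and 0.76 (0.23 to 1.28). Kdr was at 1.85 (0.28 to 4.14, from 3 control UMIs), -0.08 (-1.44 to 1.04, from 7 CF-KI UMIs) and 0.93 (0.31 to 1.56). Pericyte-like nuclei had 2 of 4 higher (13.4% of 3033 genes) and 0 lower (2.74%), again Flt1 and Kdr, with endothelial markers at 1541 and 681 CPM. Adipocyte-like nuclei had 1 of 3 higher, Flt1 (9.08% of 2048 genes), and 0 lower (5.37%), with endothelial markers at 1263 and 523 CPM. None passed 2-fold among 5 members in mesothelial-like nuclei (5.33% of genes higher, 1.42% lower), 3 in lymphatic endothelial-like nuclei (11.8% and 2.44%) and 2 in atrial cardiomyocyte-like nuclei (21.3% and 5.07%). Subtracting free RNA estimated from the endothelial markers put Flt1 in cardiomyocyte-like nuclei at -2.53 CPM in CF-KI and 2.23 CPM in control. Kdr then stood at -4.79 and 1.75 CPM. Flt1 followed Cyyr1 and Adgrl4 of those markers over the classes (r = 0.97 and 0.95), so such low values could be foreseen. In macrophage-like nuclei, where the subtraction used the cardiomyocyte markers and made control Vegfa negative, the Flt1 log2 ratio went from 0.88 to -0.17. The part of free RNA in these differences was not tested.

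**Figure D4:**
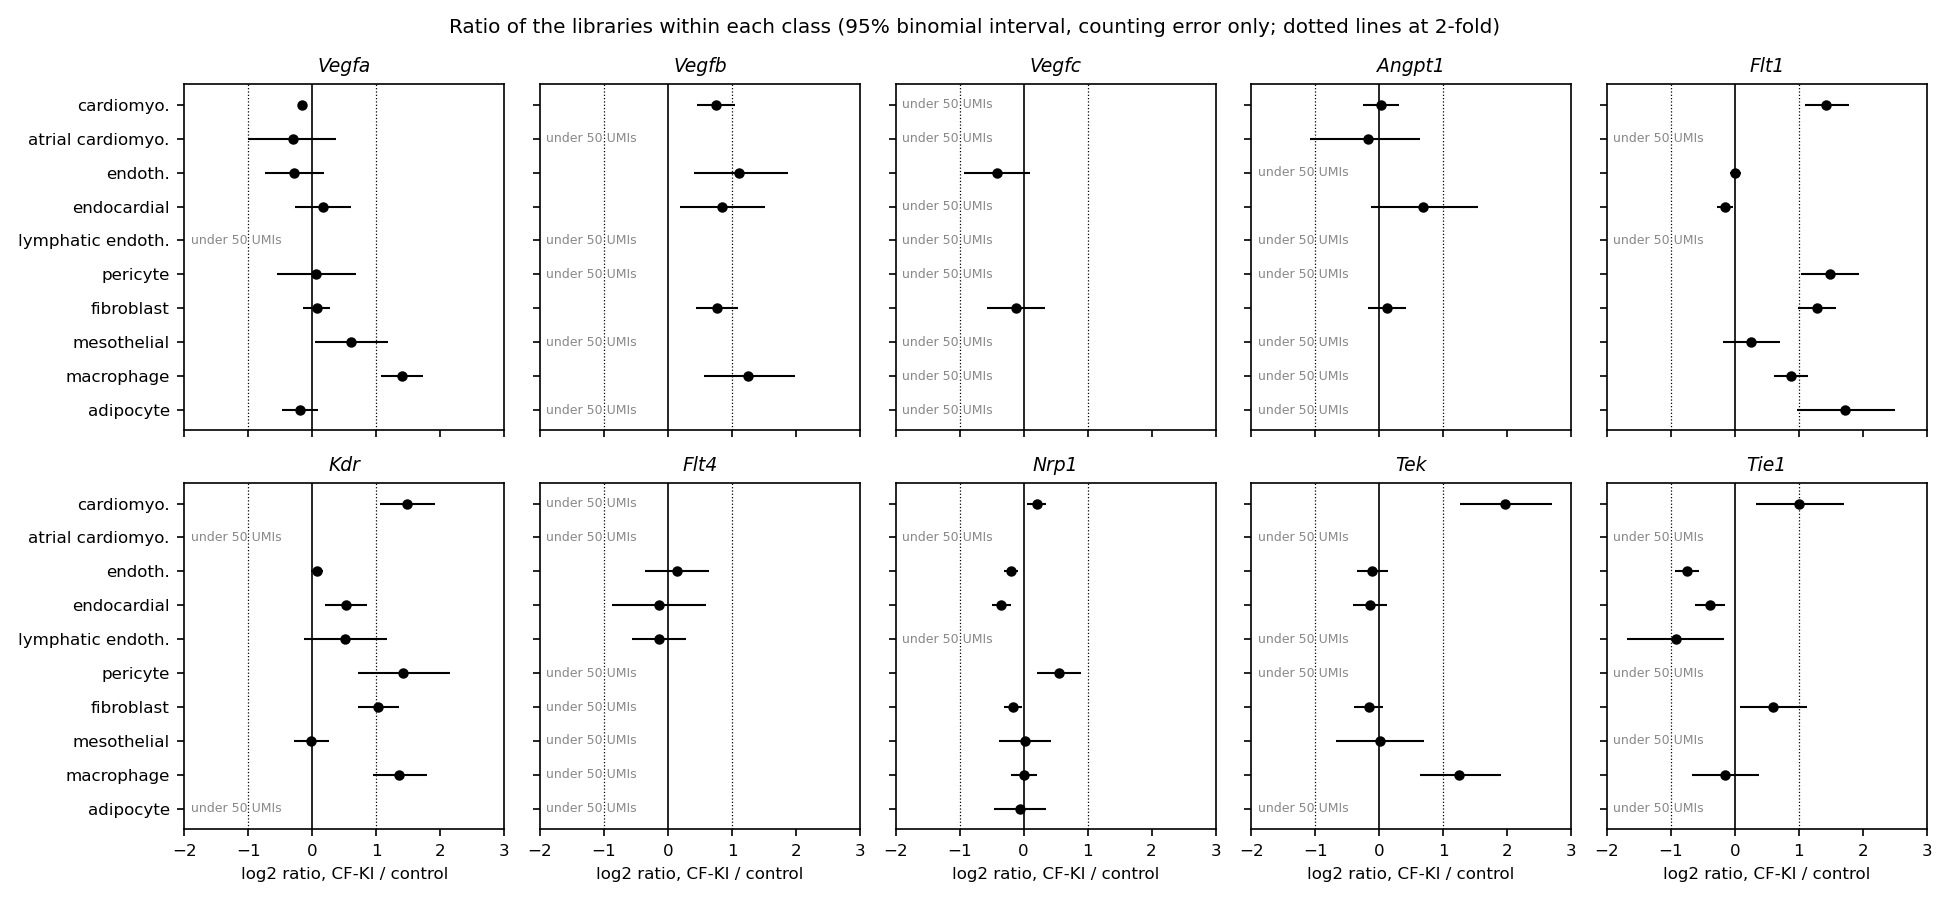
Log2 ratio of CF-KI to control (horizontal axis) for each of the 10 genes in the classes (vertical axis) where both libraries together gave at least 50 UMIs, with bars for the 95% binomial interval and dotted lines at a 2-fold difference. Flt1 and Kdr lie at 0.01 and 0.07 in endothelial-like nuclei and between 1.03 and 1.48 in fibroblast-like, pericyte-like and cardiomyocyte-like nuclei.

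Flt4, the VEGF-C receptor (ENSMUSG00000020357, chr11:49609263-49652739, plus strand), was the most class-restricted of the 10 genes by level. Lymphatic endothelial-like nuclei held 668 CPM in CF-KI and 739 CPM in control, 12.7-fold and 15.5-fold above the endothelial-like class that followed at 52.5 and 47.7 CPM. The log2 ratio of the libraries in the lymphatic class was -0.15 (-0.56 to 0.27). The lymphatic class, with 183 and 103 nuclei, contributed 33.2% of all Flt4 UMIs in CF-KI and 36.8% in control, and the endothelial-like class 30.7% and 22.1%. Among the other receptors and partners, Nrp2, the co-receptor of VEGFR3, was also highest in this class, at 1210 and 1347 CPM, with 12.5 and 10.3 Nrp2 UMIs per Nrp1 UMI.

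Nrp1, a co-receptor of VEGF-A and of semaphorins (ENSMUSG00000025810, chr8:128358604-128503363, plus strand), was the most widespread receptor gene. Endothelial-like nuclei held 881 CPM in CF-KI and 1009 CPM in control, a log2 ratio of -0.20 (-0.31 to -0.09). Endocardial-like nuclei held 544 and 692 CPM (-0.35, -0.50 to -0.19). Subtracting an estimate of free RNA, which made Vegfa negative in both of these classes, brought these values to -0.01 and -0.05. Adipocyte-like, macrophage-like, pericyte-like and fibroblast-like nuclei all lay between 213 and 432 CPM in both libraries. In macrophage-like nuclei the level was 357 and 355 CPM, and 258 and 351 CPM in those without an endothelial marker UMI. Fibroblast-like nuclei without such a UMI held 194 and 235 CPM, near the 213 and 239 CPM of the whole class. Pericyte-like nuclei held 432 CPM in CF-KI and 294 CPM in control (0.56, 0.21 to 0.90), or 351 and 259 CPM without the endothelial marker UMIs. A microRNA gene, Mir1903, lies inside Nrp1 on the same strand.

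Tek (ENSMUSG00000006386, chr4:94739289-94874976, plus strand) was level between endocardial-like nuclei (191 CPM in CF-KI, 212 CPM in control) and endothelial-like nuclei (191 and 205 CPM). The log2 ratio of the libraries was -0.15 (-0.41 to 0.12) and -0.10 (-0.35 to 0.14). Lymphatic endothelial-like nuclei held 166 CPM in CF-KI and 43.4 CPM in control, from 29 and 5 UMIs, a log2 ratio of 1.93 (0.54 to 3.66). These are fewer than the 50 UMIs required for the counts of members past 2-fold. In the lymphatic-like sub-clusters the intervals of the libraries overlapped, at 156 CPM (99.2 to 235) and 64.8 CPM (26.1 to 134). Fibroblast-like nuclei were the highest non-endothelial class, at 81.3 and 91.1 CPM, and in control they contributed 39.3% of all Tek UMIs.

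Within the fibroblast-like class Tek followed the Cilp and Pi16 cluster, Pi16 being known as a marker of adventitial fibroblasts. That cluster held 129 CPM in CF-KI (126 UMIs, 710 nuclei) and 129 CPM in control (247 UMIs, 1109 nuclei). The other fibroblast-like nuclei held 63.5 CPM (166 UMIs) and 58.8 CPM (133 UMIs). The log2 ratio of the cluster to the rest was 1.02 (0.67 to 1.36) in CF-KI and 1.14 (0.83 to 1.45) in control. Tek was the only 1 of the 10 genes at least 2-fold higher in the cluster in either library, where 3.38% of genes in CF-KI and 7.58% in control were. Endothelial marker RNA did not move with it, at 297 CPM in the cluster and 553 CPM in the rest in CF-KI, and 202 and 286 CPM in control. Nuclei without an endothelial marker UMI gave the same contrast, with 129 CPM in the cluster and 58.1 CPM in the rest in CF-KI, and 133 and 57.4 CPM in control. The nuclei of the cluster were deeper, with a median of 1434 against 857 UMIs in CF-KI and 1595 against 908 UMIs in control. Limits of 20% mitochondrial UMIs gave 1.03 and 1.16, while a limit of 5% left 8 CF-KI nuclei in the cluster and no Tek UMI.

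Tie1 (ENSMUSG00000033191, chr4:118471191-118490061, minus strand) had the largest difference between the libraries of the 6 receptor and co-receptor genes in endothelial-like nuclei. Endothelial-like nuclei held 244 CPM in CF-KI (502 UMIs) and 411 CPM in control (439 UMIs), a log2 ratio of -0.75 (-0.94 to -0.56). Endocardial-like nuclei held 228 and 299 CPM (-0.39, -0.63 to -0.16), and lymphatic endothelial-like nuclei 166 and 313 CPM (-0.92, -1.68 to -0.17). By sub-cluster it was 253 CPM (225 to 283) against 387 CPM (342 to 435) in capillary-like nuclei and 243 (212 to 278) against 318 (278 to 362) in endocardial-like nuclei. The intervals overlapped in lymphatic-like nuclei, at 177 (116 to 259) against 296 (203 to 418), and in the Wnt9b-led sub-clusters, at 170 (115 to 243) against 251 (180 to 342). They also overlapped in the unnamed sub-clusters with fibroblast genes such as Col5a3 and Dnm3os, at 176 (128 to 238) against 229 (158 to 322). The unmatched sub-clusters led by Dnm3 held 247 CPM (211 to 288, 966 nuclei) in CF-KI and 521 CPM (442 to 612, 418 nuclei) in control. That control level was the highest of any sub-cluster, and the part of such unmatched nuclei in the class value was not tested. The sum of the 10 endothelial markers was also lower in CF-KI, at 8756 against 9860 CPM in endothelial-like and 4331 against 4926 CPM in endocardial-like nuclei, and its part was not tested. Over 11 alternative settings the endothelial-like log2 ratio lay between -0.83 and -0.56. Subtracting free RNA, which made Vegfa negative in endocardial-like nuclei, turned the endocardial-like value to 0.10. Of the 9 members with at least 50 UMIs in the endothelial-like class, 0 were at least 2-fold lower in CF-KI, where 1.44% of 7798 genes were, and 1, Vegfb, was at least 2-fold higher, where 2.24% were. The members' median log2 ratio was -0.10, beside -0.06 for all genes of the class. In endocardial-like nuclei the 9 members gave 0 at least 2-fold higher (5.79% of 7096 genes) and 0 lower (1.68%).

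Other genes of the pathway, 42 in 6 lists, were compared in the same way. Among other receptors and partners, all 9 of 9 had enough UMIs in endothelial-like nuclei, 0 were at least 2-fold higher and 1 was lower, beside 2.24% and 1.44% of all genes, with a median log2 ratio of -0.48 beside -0.06 for all genes. That gene was Aplnr, the apelin receptor, at 107 CPM in CF-KI and 236 CPM in control (-1.14, -1.41 to -0.87). Robo4, an endothelial guidance receptor, stood at 105 and 194 CPM (-0.88), Notch4 at 60.3 and 104 CPM (-0.78), and the semaphorin receptor Plxnd1 at 313 and 505 CPM (-0.69). Ptprb, the phosphatase that acts on Tie2, was at 1150 and 1345 CPM (-0.23, -0.32 to -0.13). Of the 7 genes of signal and transcription, 6 were measured and none passed 2-fold, the farthest being Plcg1 at 66.1 and 106 CPM (-0.68). The VEGF response list had 4 of 6 measured with none past 2-fold in this class and a median of 0.15. Angpt2, the antagonist of Angpt1, gave only 36 and 16 UMIs there (0.23, -0.66 to 1.17).

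The oxygen sensing list holds factors that induce Vegfa and also genes that act against those factors, such as prolyl hydroxylases. It had 5 of 7 genes measured in cardiomyocyte-like nuclei. Of these, 1 was at least 2-fold higher and 0 lower, beside 9.8% and 1.09% of all genes in this class. Hif1a, the hypoxia-inducible subunit, was at 149 CPM in CF-KI and 227 CPM in control (-0.61, -0.74 to -0.47). Egln3, a prolyl hydroxylase induced by hypoxia, was at 8.42 and 2.61 CPM (1.69, 0.80 to 2.65), from 40 and 15 UMIs. Epas1, the alternative hypoxia subunit and an endothelial gene, was at 41.2 and 23.1 CPM (0.83), in the class where the endothelial markers were also higher. The hypoxia response list had 4 of 7 measured, none past 2-fold, and a median of 0.27, beside 0.17 for all genes. Its genes were Ndrg1 at 7.99 and 4.87 CPM (0.71, -0.03 to 1.47), P4ha1 at 48.6 and 31.8 CPM (0.61, 0.32 to 0.90), Bnip3 at 25.5 and 34.6 CPM (-0.44, -0.78 to -0.11) and Pdk1 at 71.5 and 75.5 CPM (-0.08, -0.29 to 0.13). In endothelial-like nuclei the same lists had 4 of 7 and 5 of 7 genes measured and 0 past 2-fold, and there Hif1a was at 89.0 and 50.5 CPM (0.82, 0.37 to 1.28).

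Of the 10 members, 9 had the same highest class in both libraries, over classes with at least 10 UMIs of the member in each, which leaves the atrial class out for Vegfb, the exception. Under the alternatives 8 to 10 did. Across the 20 pairs of class and library, the genes most like each member in log2(CPM + 1) were as follows, as a description over points that share libraries, depth and free RNA. For Flt1 they were Cd93 (r = 0.97), Cyyr1 and Adgrl4, the latter pair being markers used to name the endothelial class. Tie1 was nearest to Fgd5 (0.98), Rasip1 and Arap3, and Kdr to Aqp1 (0.94), Adgrg1 and Cd200. Tek was nearest to Bmpr2 (0.94), Rdx and Cpd, Flt4 to Tnfaip8l1 (0.92), Arhgap27 and Stc1, and Nrp1 to Crispld1 (0.85), C130074G19Rik and Tmem140. The ligand Vegfa was nearest to Plin4 (0.95) and Atad3a. Vegfb was nearest to Phyh (0.86), Smpx and Ndufs1, Vegfc to Smim7 (0.84), Dnajb9 and Ly6a, and Angpt1 to Smim5 (0.81), Dnajc25 and Mtmr1.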

How the data were processed

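The authors deposited a matrix of UMI counts for each library, made with Cell Ranger 6.1.1 against mm10, per the submitters' processing notes. They were whole numbers with no normalization, and no barcode held fewer than 500 UMIs. Whether intronic reads were counted was not given in the sources used here. Of 32285 feature rows, those sharing a symbol were summed to 32245. Barcodes with at least 200 genes were kept, and 650 CF-KI and 299 control doublets called by Scrublet (scanpy 1.11.5) were removed. No mitochondrial limit was set, because a limit of 5% kept 2199 CF-KI against 6614 control nuclei; clusters with a median mitochondrial share above 50% were kept out of every class. Nuclei were clustered jointly on 2000 variable genes, 30 principal components and 15 neighbours (leidenalg 0.10.2, resolution 0.8), without the 10 genes, the 42 other pathway genes, mitochondrial and ribosomal protein genes. Clusters were named by their best-scoring list of markers, provided that 3 or more were raised, and were otherwise left unnamed. UMIs were summed per class and library. Intervals are exact Poisson for CPM, conditional exact binomial for log2 ratios and Clopper-Pearson for shares of nuclei. Background shares cover genes with at least 50 UMIs over both libraries. Positions come from GENCODE vM21 on GRCm38. Free RNA was estimated from the median level of another class's markers relative to the whole library. Subtracting it gave negative levels in places, such as Vegfa in endothelial-like, endocardial-like and pericyte-like nuclei, so subtracted values are rough. Scaling alternatives used edgeR 4.0.16 and DESeq2 1.42.0. Restricting a class to 1 cluster, to nuclei without endothelial marker UMIs or to the extreme 25% by cardiomyocyte marker RNA was chosen after seeing the data. The computations were tested on simulated data.

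All 10 members are named; other pathway genes were named if they had at least 50 UMIs in a class, up to 4 per list by the size of the log2 ratio. Other genes of a list were named after their values were seen. The members and lists were chosen with earlier results of these data known. For each member the 3 genes most like it were named, except 1 that is not reported here.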

Additional observations from a re-analysis of the deposited data

Results flagged for a closer look

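For 4 of the genes, the libraries differed in opposite directions in different classes, with each interval excluding 0 in the main setting. None of these differences between classes was tested, since each class has 1 library per group. The Vegfa log2 ratio was 1.40 in macrophage-like and -0.17 in cardiomyocyte-like nuclei. For Flt1 it was 1.72 in adipocyte-like nuclei (50 and 22 UMIs) and -0.15 in endocardial-like nuclei; the latter was 0.21 with free RNA subtracted, and its interval with TMM scaling (-0.25 to 0.0048) included 0. The Nrp1 ratio was 0.56 in pericyte-like and -0.35 in endocardial-like nuclei. Subtracting free RNA left little of the endocardial-like Nrp1 difference, as given above. For Tie1 it was 1.01 in cardiomyocyte-like nuclei (50 and 30 UMIs) and -0.92 in lymphatic endothelial-like nuclei (29 and 36 UMIs). Endothelial marker RNA was higher in CF-KI in the adipocyte-like, pericyte-like and cardiomyocyte-like classes, and its part in the difference between classes was not tested.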

How the results depend on the processing

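No paired analysis was possible because each group has 1 library. Of 97 alternative values for the 9 main results, 86 stayed within the main value's counting interval (for the count of members with the same highest class, within 1.5 times) and 11 did not, none to the opposite side of 0 from a value whose interval excluded it. For Vegfa in cardiomyocyte-like nuclei the log2 ratio was -0.32 with high-mitochondrial clusters kept, -0.37 with TMM, -0.38 with median-of-ratios scaling and -0.10 with free RNA subtracted. In endothelial-like nuclei, at most 5% mitochondrial UMIs gave 0.24 for Flt1 and 0.41 for Kdr, keeping doublets gave -0.036 for Kdr, and subtracting free RNA gave 0.24 for Flt1, 0.30 for Kdr and -0.0051 for Nrp1. Subtraction also gave 0.41 for Flt4 in lymphatic endothelial-like nuclei. Why these values moved was not tested. The share of genes past 2-fold in endothelial-like nuclei was 3.68% with at least 50 UMIs and 7.13% with at least 20. The additional Vegfa value of macrophage-like nuclei, chosen after seeing the data, was 0.93 to 2.05, and subtraction left no control level. Sparse genes (Vegfc, Angpt1) and small classes (atrial, lymphatic, adipocyte-like) are limited by depth.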

Other observations

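Some values lie outside the 10 classes. Platelet-like barcodes, 94 in CF-KI and 9 in control, held Angpt1 at 137 CPM (70.8 to 239, 12 UMIs) in CF-KI and 0 UMIs in control, where the interval reached 296 CPM. In the high-mitochondrial cluster, 12.9% of CF-KI and 2.03% of control nuclei, Vegfa was at 210 and 191 CPM, below the 734 and 826 CPM of cardiomyocyte-like nuclei, and Kdr at 122 and 57.7 CPM. Flt1 there was at 171 and 133 CPM.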
